A study of Arabidopsis thaliana with 6 samples.

Results

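Chlorophyll synthesis was followed here through the transcripts of 10 nuclear genes of Arabidopsis thaliana, HEMA1 (AT1G58290), GSA1 (AT5G63570), CHLH (AT5G13630), CHLI1 (AT4G18480), GUN4 (AT3G59400), CHLM (AT4G25080), CRD1 (AT3G56940), PORB (AT4G27440), PORC (AT1G03630) and CAO (AT1G44446). They were taken by locus identifier from the 32833 genes listed, and were chosen with earlier results of these data known. All 10 were present in the 6 libraries, and all 10 passed the filter on low counts that left 12701 genes to test. The libraries are 3′ RNA-seq of whole seedlings, 3 of the reference accession Col-0 as wild type and 3 of amiRNA-VQ1,10. That line carries an artificial microRNA, a designed small RNA, named for VQ1 and VQ10, members of a plant protein family known to bind WRKY transcription factors. Seedlings of both genotypes were 14 days old, lived in days of 16 h of light (150 µmol photons per square metre and second) and 8 h of darkness on medium with 1% sucrose in normoxia (21% O2), and were collected at 4 h of the light period. The labels give neither the promoter that drives the artificial microRNA nor the number of independent lines. The comparison asks how transcript levels in normoxia differ between the genotypes.

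Plants build chlorophyll in the plastid, by enzymes that nuclear genes encode. Glutamate is first turned into aminolevulinic acid, the step at which flow into the pathway is set, and then into protoporphyrin. There magnesium chelatase opens the chlorophyll branch and ferrochelatase the heme branch. Later intermediates are photoreactive, and the last reduction before chlorophyllide needs light in flowering plants, and light, the state of the plastid and the clock are known to act on these genes. In a light-grown green seedling the pathway supplies chlorophyll as leaves expand.

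The libraries held 926209 to 1329817 counts over genes, of which the 10 genes took 0.292% to 0.340%. VQ1 (AT1G17147) had 5, 1 and 2 counts in wild type and none in the amiRNA-VQ1,10 libraries, and VQ10 (AT1G78410) had 1 count in all. Neither passed the filter, so the targeted genes give no firm check of the labels, and the depth was too low to compare VQ10. All 11 markers of green tissue passed the filter, at 1291 to 5759 CPM (counts per 1000000 counts of the library, scaled by the trimmed mean method, TMM). Of 11 root markers 6 passed, CASP5 had 1 count in all, and no root marker was at 0 in every library. In a whole seedling, fewer cells of a type and less RNA per cell cannot be told apart.

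Several of these enzymes have a second gene, so the sequences that tell the copies apart bear on the counts of those genes. The last 60 coding bases, stop codon included, are shown 5′ to 3′ for the pairs whose ratio is tested below, from the TAIR10.1 genome and annotation of RefSeq. Capitals mark the bases at which a gene differs from its partner when the stretches are set side by side without gaps.
PORB: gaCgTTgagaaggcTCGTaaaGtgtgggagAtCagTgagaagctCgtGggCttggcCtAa
PORC: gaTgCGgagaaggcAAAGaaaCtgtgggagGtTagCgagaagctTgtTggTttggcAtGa
CHLI1: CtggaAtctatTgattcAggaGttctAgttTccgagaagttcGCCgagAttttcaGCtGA
CHLI2: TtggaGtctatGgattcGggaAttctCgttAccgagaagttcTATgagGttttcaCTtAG
GSA1: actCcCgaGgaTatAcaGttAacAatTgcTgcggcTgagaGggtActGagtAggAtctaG
GSA2: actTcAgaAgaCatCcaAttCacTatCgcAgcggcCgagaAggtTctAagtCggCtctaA
The members of the pairs differ at 16, 15 and 17 of these 60 bases. Over the whole coding sequence 73.5% of aligned bases were the same for PORB and PORC, 81.8% for CHLI1 and CHLI2, 83.5% for GSA1 and GSA2 and 82.8% for HEMA1 and HEMA2. Within the last 300 bases of the transcripts, where 3′ reads come from, the longest run shared was 10 bases for PORB and PORC, 11 for CHLI1 and CHLI2, 15 for GSA1 and GSA2 and 9 for HEMA1 and HEMA2. Reads of the copies can thus be told apart there by sequence, while stretches of up to 49 coding bases are the same in HEMA1 and HEMA2. Past the stop codon the annotated transcripts of PORB and PORC run for 333 and 405 bases. The bases printed above for this pair therefore lie outside the last 300.

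The levels of the 10 genes spanned a wide range, in an order of the means that was the same in both genotypes. Reads of 3′ RNA-seq come from transcript ends, whatever the length of the transcript, so levels are given in CPM, followed by the order per kilobase. CRD1, which encodes a subunit of the cyclase that closes the extra ring of the chlorophyll macrocycle, was highest with a mean of 894 CPM over the 6 libraries. CHLH, the large porphyrin-binding subunit of magnesium chelatase, followed with 744 CPM. They ranked 113 and 149 among the 12701 tested genes. HEMA1 had 393 CPM, CHLM 272, PORC 230.0, GSA1 214 and CHLI1 158. CAO had 131 CPM, PORB 86.7 and GUN4, the lowest, 69.8, which still placed it at rank 2764. Of the 9 pairs of neighbours in this order, 5 had overlapping ranges over the 6 libraries: HEMA1 with CHLM, CHLM with PORC, PORC with GSA1, CHLI1 with CAO, and PORB with GUN4. Per kilobase of annotated transcript CRD1 stayed first with 599 CPM per kb. CHLM, with a short transcript of 1097 bases, moved to second with 248, and CHLH, with 4753 bases, to rank 4 with 157, while PORB was last with 52.8. The length is that of the annotated transcript with the longest coding sequence, for CHLM 1 of 6. Since 3′ reads do not grow with length, the order in CPM is the one to read as levels.

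**Figure D1:**
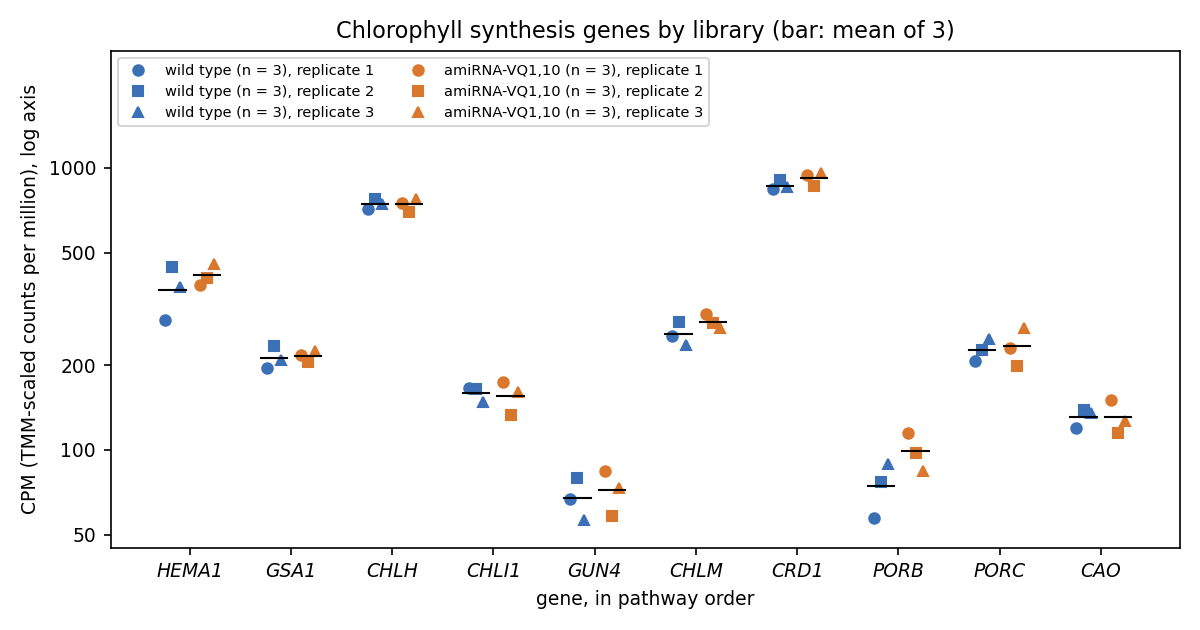
Each point is the TMM-scaled CPM (log axis) of a gene in 1 library, blue for wild type and orange for amiRNA-VQ1,10, with the replicate number as the shape and a bar at the mean of 3. The genotypes overlap for each of the 10 genes, from GUN4 at 56.4 to 84.4 CPM up to CRD1 at 839 to 960.5 CPM.

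None of the 10 genes differed between genotypes by the test across all genes. By the quasi-likelihood test of edgeR with Benjamini-Hochberg adjustment 0 of 10 passed an adjusted p of 0.05, against 0.102% of all tested genes (13, of which 4, or 0.0315%, were higher and 9, or 0.0709%, lower in amiRNA-VQ1,10). This split turned to 13 higher and 4 lower when replicate 1 of the line was left out. At an unadjusted p under 0.05 in edgeR there was 1 of 10, PORB, against 5.79% of all tested genes. DESeq2 and limma-voom also called 0 of 10 after adjustment and 1 before it. Before adjustment DESeq2 called 224 of all 12701 tested genes, and the share for limma-voom is not given here. No gene of the 10 had separate ranges in the genotypes, where 10.4% of all tested genes did. The log2 fold changes (amiRNA-VQ1,10 over wild type) ran from -0.03 to 0.40 with a median of 0.07, beside a median of 0.00350 over all tested genes. In this fit 8 of 10 were above 0, against 50.7% of all tested genes. The number above 0 was 7 by DESeq2 and by limma-voom, and from 6 to 10 with a library left out. The 95% intervals, from the spread in the same fit and not adjusted for the number of genes, ended at 0.838-fold at the low side (CHLI1) and 1.63-fold at the high side (PORB), so that for none of the 10 did the interval reach a 2-fold difference.

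**Figure D2:**
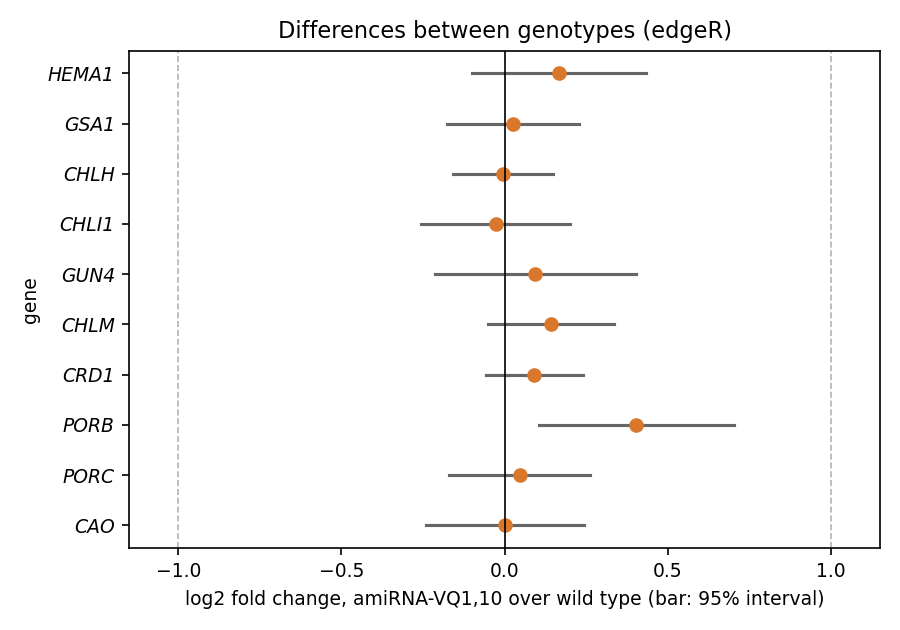
Points are edgeR log2 fold changes (amiRNA-VQ1,10 over wild type, n = 3 per genotype) of the 10 genes in pathway order, bars their 95% intervals, and dashed lines mark a 2-fold difference. All bars cross 0 except that of PORB, from 0.11 to 0.70, and none reaches a dashed line.

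The first enzymes make aminolevulinic acid. HEMA1 encodes glutamyl-tRNA reductase, the enzyme at which the pathway is held back, and the form induced in green tissue. Its levels were 289, 444 and 377 CPM in the wild type libraries and 385, 407 and 455 CPM in the amiRNA-VQ1,10 libraries. The lowest value was that of wild type replicate 1, and the other wild type values lie within or next to the range of the line. The log2 fold change was 0.17 ± 0.13 (SE, edgeR adjusted p = 0.927), and it stood at 0.01 when wild type replicate 1 was left out and at 0.32 when replicate 2 was. The coefficient of variation of HEMA1 among the wild type libraries was 21.0%, against 4.72% from counting alone. GSA1 encodes glutamate semialdehyde aminotransferase, which completes aminolevulinic acid. It stood at 196, 233 and 208 CPM in Col-0 and at 217, 206 and 225 CPM in amiRNA-VQ1,10. These values interleave, with a log2 fold change of 0.03 ± 0.10 (adjusted p = 0.992).

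The second copies of these genes were lower. HEMA2, known from tissue that is not green, had 7, 9 and 6 counts in wild type and 4, 7 and 10 in amiRNA-VQ1,10, too few to test, while HEMA1 had 341 to 593 counts in the same libraries. GSA1 exceeded GSA2 3.80-fold ± 0.386 in wild type and 3.46-fold ± 0.176 in amiRNA-VQ1,10 (SD, n = 3; ratio of counts, exact two-sided permutation p = 0.3, adjusted over the 3 ratios tested 0.45). With 3 libraries against 3 an exact permutation test cannot go below p = 0.1.

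Magnesium chelatase puts the metal into protoporphyrin. CHLH stood at 714, 778 and 746 CPM in Col-0 and at 751, 698 and 778 CPM in amiRNA-VQ1,10. It was the steadiest of the 10 genes, with a coefficient of variation of 4.40% over all 6 libraries, close to the 3.43% that counting gives. Its log2 fold change of -0.01 ± 0.08 (edgeR adjusted p = 0.994) had a 95% interval of -0.16 to 0.15. CHLI1, the main copy of the ATPase subunit that drives insertion, had 166, 164 and 148 CPM in Col-0 and 174, 133 and 160 CPM in amiRNA-VQ1,10. The line held both the highest and the lowest value (log2 fold change -0.03 ± 0.11, adjusted p = 0.992). GUN4, a porphyrin-binding protein that activates the chelatase, had 66.9, 79.4 and 56.4 CPM in Col-0 and 84.4, 58.5 and 73.2 CPM in amiRNA-VQ1,10. With 54 to 106 counts per library it was the gene with the fewest counts, and its log2 fold change of 0.09 ± 0.15 (adjusted p = 0.978) had an interval of -0.21 to 0.40.

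The ratios among the chelatase transcripts overlapped between the genotypes. Counts of CHLH were 2.81 to 3.57 times those of CHLI1 and CHLI2 together and 6.02 to 7.93 times those of CHLD, the third subunit, with both extremes of the first ratio in wild type. These ratios are per transcript end and would be smaller per kilobase, because CHLH has the longest transcript of the 10. CHLI1 exceeded its copy CHLI2 2.28-fold ± 0.344 in wild type and 2.24-fold ± 0.219 in amiRNA-VQ1,10 (SD, n = 3; exact two-sided permutation p = 0.8, adjusted 0.8).

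The next enzymes shape the ring. CHLM methylates magnesium protoporphyrin, and had 253, 285 and 235 CPM in Col-0 and 303, 283 and 271 CPM in amiRNA-VQ1,10. All 3 values of the line exceeded those of wild type replicates 1 and 3, but replicate 2 lay among them (log2 fold change 0.14 ± 0.10, edgeR adjusted p = 0.904). CRD1 had 839, 905 and 852.5 CPM in Col-0 and 944, 861 and 960.5 CPM in amiRNA-VQ1,10. The 2 highest values were in the line and the others overlapped (log2 fold change 0.09 ± 0.07, adjusted p = 0.929, interval -0.06 to 0.24). CRD1 and CHLH, with the most counts, had the narrowest intervals.

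Protochlorophyllide reductases carry out the step that needs light. PORA, the form known to vanish from greened tissue, had 2 counts in the wild type libraries together and 5 in the amiRNA-VQ1,10 libraries, too few to test. PORB, made in the dark and in the light, had 57.6, 77.1 and 88.9 CPM in Col-0 and 115, 97.4 and 84.3 CPM in amiRNA-VQ1,10. The genotypes overlapped, since wild type replicate 3 lay above replicate 3 of the line, yet PORB had the largest difference of the 10 genes. Its log2 fold change was 0.40 ± 0.15 (1.32-fold, 95% interval 1.08 to 1.63, unadjusted p = 0.00944 in edgeR), with an adjusted p of 0.605. With wild type replicate 1 left out the log2 fold change of PORB was 0.25. PORC, the form of light-grown leaves, had 207, 227 and 247 CPM in Col-0 and 230.3, 198 and 271 CPM in amiRNA-VQ1,10. The line again held both extremes (log2 fold change 0.05 ± 0.11, adjusted p = 0.987).

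PORB made up 21.7%, 25.4% and 26.4% of the counts of the 3 reductase genes in wild type and 33.0%, 32.7% and 23.7% in amiRNA-VQ1,10. Replicates 1 and 2 of the line were above all wild type libraries, and replicate 3 was among them. The ratio of PORB to PORC counts was 0.326 ± 0.0421 in wild type and 0.434 ± 0.106 in amiRNA-VQ1,10 (SD, n = 3; exact two-sided permutation p = 0.3, adjusted 0.45). The difference of the log2 ratio was 0.39, and 0.61 when replicate 3 of the line was left out. PORB and PORC together had 302 ± 36.1 CPM in Col-0 and 332 ± 31.9 CPM in amiRNA-VQ1,10.

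A neighbouring gene had a difference like that of PORB, and did not pass either. The annotated 3′ end of PORB (chr4:13725546-13727440, TAIR10.1, forward strand) overlaps by 71 bases that of AT4G27450 on the opposite strand, whose protein RefSeq names for aluminium induction and its YGL and LRDR motifs. This gene was singled out after its values were seen. It had 47.4, 57.6 and 51.1 CPM in Col-0 and 73.4, 69.3 and 71.5 CPM in amiRNA-VQ1,10. Its ranges were separate, as were those of 10.4% of all tested genes. The log2 fold change of AT4G27450 was 0.45 ± 0.14 (edgeR unadjusted p = 0.00363, adjusted p = 0.495), close in size to that of PORB. The strand setting of the counting is not given in the sources used here, and the part of reads from the neighbour in the PORB counts was not tested. Another overlap with a gene on the opposite strand was annotated for CHLI1, GUN4, CRD1, PORC, CHLM and CAO. Their 7 partners had 17 counts or fewer in any library, against 54 or more for each of the 6 genes.

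**Figure D3:**
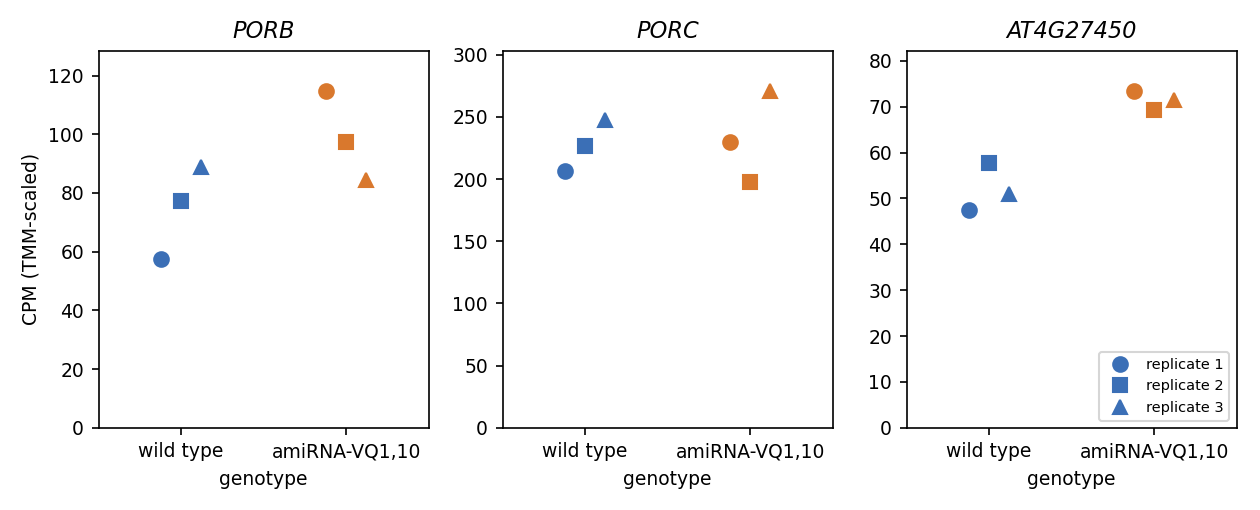
TMM-scaled CPM of PORB, PORC and AT4G27450, whose 3′ end overlaps that of PORB, in each library by genotype, with the replicate number as the shape. PORB and PORC overlap between genotypes, and AT4G27450 runs from 47.4 to 57.6 CPM in Col-0 and from 69.3 to 73.4 CPM in amiRNA-VQ1,10.

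To set the sequence upstream beside these values, the 250 bases before the annotated start of PORB and of PORC are shown 5′ to 3′, as the pair of copies whose ratio differed most between the genotypes. Capitals mark matches, on either strand, to 5 short motifs known from light- and clock-regulated genes: the G-box was searched as CACGTG, the CCAAT-type element as CCAATC, the I-box as GATAAG, the evening element as AAAATATCT and the CCA1-binding site as AAAAATCT. No match of one overlapped a match of another in these 2 windows.
PORB, chr4:13725296-13725545, TAIR10.1, forward strand: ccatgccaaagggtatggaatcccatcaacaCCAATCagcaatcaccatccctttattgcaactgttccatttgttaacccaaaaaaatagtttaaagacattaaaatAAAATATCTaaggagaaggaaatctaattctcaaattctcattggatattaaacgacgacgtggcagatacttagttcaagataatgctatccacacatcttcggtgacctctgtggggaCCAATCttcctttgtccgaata
PORC, chr1:907273-907522, TAIR10.1, forward strand: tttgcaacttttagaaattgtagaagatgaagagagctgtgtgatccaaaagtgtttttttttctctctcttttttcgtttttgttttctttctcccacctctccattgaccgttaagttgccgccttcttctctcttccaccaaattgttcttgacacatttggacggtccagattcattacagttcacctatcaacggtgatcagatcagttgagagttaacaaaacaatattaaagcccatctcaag
PORB held CCAATC from positions -219 and -22 and the evening element from -142, counted from the annotated start, and PORC held none of the 5 in this window. Among the 10 genes CACGTG was found in 2 (CRD1 and CAO), CCAATC in 2 (GUN4 and PORB), GATAAG in 0, the evening element in 1 (PORB) and the CCA1-binding site in 2 (GUN4 and CRD1). Over 27443 windows of the same length before protein-coding genes the shares were 6.49%, 10.2%, 12.3%, 2.36% and 6.69% in this order. A match is a description of letters, not a bound site.

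CAO adds the formyl group that turns chlorophyll a into chlorophyll b. It had 119, 138 and 135 CPM in Col-0 and 150.4, 115 and 127 CPM in amiRNA-VQ1,10. The line held both extremes, and the log2 fold change was 0.00100 ± 0.12 (edgeR adjusted p = 1.000, interval -0.24 to 0.24). Its sign turned in most other fits, which at this size carries no direction.

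The 10 genes tended, to differing degrees, to be high or low in the same libraries, whatever the genotype. The Pearson r of a gene with the mean of the others ran from 0.38 (PORB) and 0.45 (CHLI1) to 0.91 (CRD1). How closely the genes of other sets follow each other over the libraries was not computed. Within wild type, replicate 2 had the highest value for 7 of the 10 genes and replicate 1 the lowest for 7. Within amiRNA-VQ1,10, replicate 2 had the lowest value for 7, and replicates 1 and 3 had the highest for 5 each. The sum over the 10 genes was 2907, 3331 and 3094 CPM in Col-0 and 3355, 3056 and 3404 CPM in amiRNA-VQ1,10. Wild type replicate 2 thus lay with replicates 1 and 3 of the line, and replicate 2 of the line, the library with the lowest total count, lay with the other wild type libraries. The 10 genes share their libraries and scaling, and the coefficient of variation between replicates that edgeR assigned, beyond counting, had a median of 7.56% over the 10 and of 6.68% over all tested genes. The 5 other genes with at least 20 CPM whose log2 levels followed the mean of the 10 most closely over the 6 libraries were MAP65-7, AT1G55960, CA2, CLC-D and FUG1, with Pearson r of 0.99, 0.99, 0.98, 0.98 and 0.98. They are the highest of 8103 genes searched, of which 69 had an r over 0.9, and were picked for it. The median r of the 8103 genes was 0.0149.

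The rest of the pathway held no called gene. Of 24 other genes of chlorophyll synthesis 22 were tested, HEMA2 and PORA having too few counts. None passed (edgeR, 1 at an unadjusted p under 0.05), the median log2 fold change was 0.06, and 16 were above 0. CHLP, the geranylgeranyl reductase that makes the phytyl tail, had the smallest p, with 1347 ± 22.6 CPM in Col-0 and 1510 ± 61.9 CPM in amiRNA-VQ1,10 (SD, n = 3). Its ranges were separate, but the log2 fold change of 0.16 ± 0.07 did not pass (edgeR adjusted p = 0.715). Of the 22 genes 2 had separate ranges, against 10.4% of all tested genes, and the other of these was lower in the line. HEMD, uroporphyrinogen synthase, and GLURS, which charges the tRNA with glutamate, had log2 fold changes of 0.48 ± 0.24 and 0.30 ± 0.23 from levels of 18.9 and 23.0 CPM in wild type.

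The branches that compete with synthesis or undo it showed no called gene either. All 6 genes of the heme, bilin and siroheme branch were tested, with a median of 0.06 and 0 at an unadjusted p under 0.05. UPM1, which leads to siroheme, HY2, which makes the phytochrome chromophore, and FC1, a ferrochelatase, had log2 fold changes of 0.25 ± 0.15, 0.49 ± 0.35 and 0.09 ± 0.15. Of 10 genes of the chlorophyll cycle and of breakdown 7 were tested (median 0.00288). NYC1, a chlorophyll b reductase, was the 1 gene of these with an unadjusted p under 0.05, at 27.7 ± 9.25 CPM in Col-0 and 39.6 ± 10.2 CPM in amiRNA-VQ1,10 (log2 fold change 0.49 ± 0.22, edgeR adjusted p = 0.814). RCCR, which acts on the opened ring, and CLH1, a chlorophyllase, stood at -0.16 ± 0.13 and 0.09 ± 0.13.

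All 12 regulators listed were tested and none passed, with 6 above and 6 below 0 and a median of -0.00477. PIF5, a phytochrome-interacting factor, had 183 ± 11.5 CPM in Col-0 and 213 ± 21.6 CPM in amiRNA-VQ1,10, with separate ranges (log2 fold change 0.22 ± 0.10, edgeR unadjusted p = 0.0384, adjusted p = 0.831). It was the 1 regulator of 12 with separate ranges, against 10.4% of all tested genes. GLK2, an activator of photosynthesis and chlorophyll genes, and FHY3, a factor of far-red light signalling, had log2 fold changes of -0.16 ± 0.12 and 0.22 ± 0.18. Of 10 clock genes that mark the time of day 6 had enough counts, and none passed. LUX, GI and CCA1 stood at 0.58 ± 0.37, 0.33 ± 0.23 and -0.17 ± 0.15. GI was the 1 of the 6 tested clock genes with separate ranges. PRR5 had 1 count in all libraries together.

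No marker of green tissue passed the test. All 11 were above 0, with a median log2 fold change of 0.09 and a range of 0.03 to 0.16. Of the 11, 2 had an unadjusted p under 0.05 in edgeR, against 5.79% of all tested genes. RBCS1B, RBCS1A, both of the Rubisco small subunit, and RCA, the Rubisco activase, had 0.16 ± 0.07, 0.12 ± 0.06 and 0.14 ± 0.07 (edgeR adjusted p of 0.810, 0.859 and 0.867). The sum of the 11 was 33243, 33763 and 33320 CPM in Col-0 and 37030, 34005 and 35501 CPM in amiRNA-VQ1,10, with separate ranges. Taken singly, 3 of the 11 had separate ranges, a larger share than the 10.4% of all tested genes. The other markers overlapped between the genotypes. The 6 tested root markers had a median of -0.06, with PYK10, a beta-glucosidase, at 0.22 ± 0.09 and CASP1, of the Casparian strip, at -0.33 ± 0.22. The sum of the 11 root markers was 1110.2 to 1236 CPM in Col-0 and 1115 to 1571 CPM in amiRNA-VQ1,10. Most of it was PYK10 alone, with 1047, 929 and 1031 CPM in Col-0 and 1138, 1378 and 991 CPM in amiRNA-VQ1,10. The sum thus follows 1 gene, while of the 6 tested root markers 2 were above 0 and 4 below. The part of green tissue content in the levels of the synthesis genes was not tested.

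**Figure D4:**
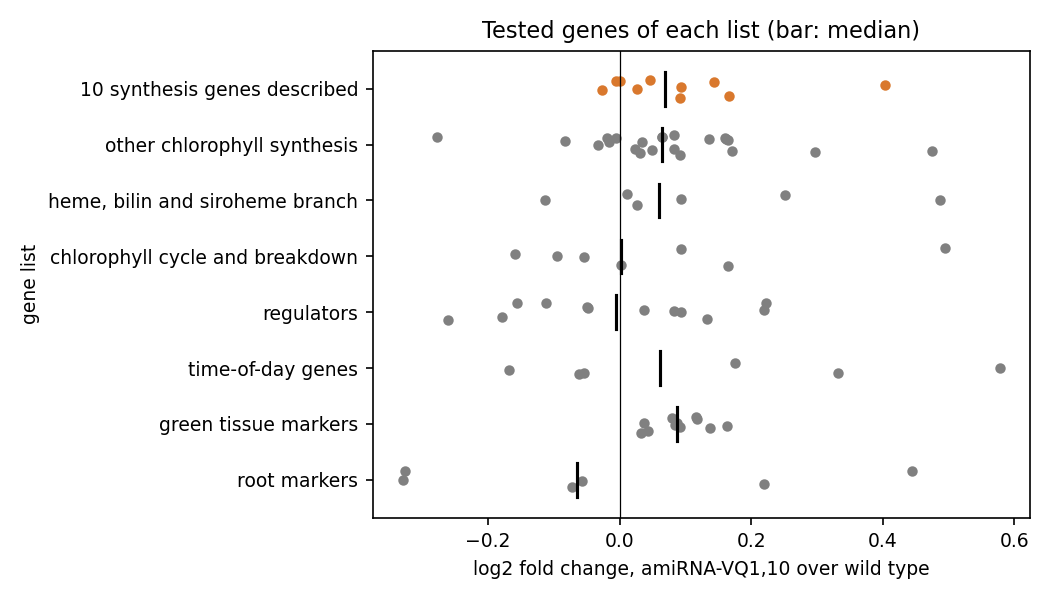
Each point is the edgeR log2 fold change (amiRNA-VQ1,10 over wild type) of a tested gene, by list, with a bar at the median and the vertical spread added for legibility. The medians lie between -0.06 for the root markers and 0.09 for the green tissue markers, and PORB, at 0.40, stands away from the other 9 synthesis genes.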

How the data were processed

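Total RNA of whole seedlings was sequenced from the 3′ end in 3 libraries per genotype, called independent biological replicates in the series' design text. The authors deposited raw counts per gene, 1 file per library, with no normalization. The submitters' processing notes list TAIR10, STAR, HISAT2 2.0.4 and DESeq2 without saying what each was used for. Not given in the sources used here are the counting program, its strand setting and the use of molecular identifiers. The closing rows of each file, which name no gene, were left out. Of a library's entries, reads outside genes were 3.79% to 4.07%, reads in several genes 0.103% to 0.109% and reads with several alignments 4.40% to 5.45%.

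Counts were tested with edgeR 4.0.16 in R 4.3.3 (filterByExpr with a minimum count of 10 and a minimum total of 15, TMM scaling, robust quasi-likelihood test, no covariate), with Benjamini-Hochberg adjustment over the 12701 tested genes and a threshold of 0.05. The SE was taken as the log2 fold change divided by the root of the F statistic. Ratios of counts within a library were tested by exact permutation. Replicates differed by more than sampling noise (chi-square per degree of freedom 1.27 to 1.66). On simulated data of this comparison, with 200 changed genes drawn and 12326 genes tested, 18.8% of the 1.5-fold changes, 68.1% of the 2-fold changes and 95.8% of the 4-fold changes were called, and 2.88% of all calls were false. The simulation gave 139 calls, against 13 in the data. With more calls the adjustment lets larger unadjusted p pass, so these rates can overstate what the test finds in the data. The changed genes were drawn over all levels of expression, and the spread between replicates was set by level alone. Rates at the levels of the synthesis genes were not computed. Sequences, positions and overlaps came from RefSeq TAIR10.1, whose nuclear chromosomes were used with its own annotation. The files hold no coordinates.

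All members and the 3 genes of smallest p in each list are named, with VQ1, VQ10 and the 5 genes most like the members. A root marker that this rule names is not reported here. AT4G27450 was added after its values were seen. The members and lists were chosen with earlier results of these data known. The alternatives were other scalings and filters, DESeq2 1.42.0, limma-voom (limma 3.58.1), a block by replicate number, fits that leave out organelle genes or each library, and, chosen after seeing the data, a dispersion prior that is not robust.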

Additional observations from a re-analysis of the deposited data

How the results depend on the processing

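No synthesis gene and no gene of the pathway lists passed the threshold under any alternative run. The median over the 10 genes lay between 0.00747 (without wild type replicate 1) and 0.14 (without amiRNA-VQ1,10 replicate 2) with a library left out, and between 0.05 and 0.07 in the other fits. PORB stayed above 0 in all fits, at 0.25 without wild type replicate 1 and up to 0.54 without wild type replicate 3, with adjusted p from 0.270 to 1.000. The count of all genes past the threshold was 59 with no filter (28 higher and 31 lower), 6 by DESeq2 and 8 by limma-voom, against 13, and with a library left out from 6 (without wild type replicate 1, 2 higher and 4 lower) to 23 (without amiRNA-VQ1,10 replicate 3, 9 higher and 14 lower). The count was 22 without wild type replicate 2 (4 higher and 18 lower), 8 without replicate 3 (3 and 5), 17 without amiRNA-VQ1,10 replicate 1 (13 and 4, the balance turned) and 21 without replicate 2 (9 and 12).

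Same-numbered libraries did not deviate together (correlations of -0.00591, -0.02 and -0.03), so the labels' numbers are not taken as pairs. With the replicate number as a block 0 of 10 synthesis genes passed, with a median of 0.06. The log2 ratios differed between genotypes by 0.39 for PORB over PORC, -0.02 for CHLI1 over CHLI2 and -0.13 for GSA1 over GSA2, as without it. A block cannot move these means, since each genotype has 1 library of each number. The exact two-sided p for PORB over PORC was 0.5 by sign flips within the numbers, against 0.3 by permutation.

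CAO changed sign, at -0.000475 with RLE scaling, -0.0173 with library totals alone, -0.00399 with no filter, -0.00422 with a strict filter, -0.00140 by DESeq2, -0.00408 by limma-voom, -0.00342 with the block and -0.000988 with organelle genes left out. With a library left out the log2 fold changes ran from -0.112 to 0.0790 for CAO, -0.0316 to 0.102 for GSA1, -0.0421 to 0.0358 for CHLH, -0.113 to 0.0669 for CHLI1, -0.0317 to 0.235 for GUN4 and -0.0800 to 0.145 for PORC, and the difference of the log2 ratio from -0.151 to 0.0638 for CHLI1 over CHLI2, from 0.272 (without amiRNA-VQ1,10 replicate 1) to 0.611 (without amiRNA-VQ1,10 replicate 3) for PORB over PORC and from -0.201 (without wild type replicate 1) to -0.0560 (without wild type replicate 3) for GSA1 over GSA2. Intervals cover the spread between these libraries only.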
